A study of Mus musculus with 12 samples.

Results

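The ADAMTS genes encode secreted zinc proteases with thrombospondin repeats, and 10 of them were followed here by their gene symbols in the deposited expression values: Adamts1, Adamts2, Adamts4, Adamts5, Adamts7, Adamts8, Adamts9, Adamts10, Adamts12 and Adamts15. They are 10 of the 19 ADAMTS genes and of the 52858 genes in the files, and all 10 were among the 15240 genes that passed the filter on low values. RNA had been sequenced from 12 mouse hearts, 3 in each of 4 groups, all from male mice aged 3 to 5 months and all perfused outside the body on a Langendorff apparatus, in which the heart beats without blood flow from the animal. C57-non-IR hearts came from C57BL/6J mice and were perfused for 80 min. C57-IR hearts came from the same strain and received 20 min of perfusion, 20 min of global ischemia without flow and 40 min of reperfusion. Slit2-non-IR and Slit2-IR hearts came from heterozygous Slit2-Tg mice under the same 2 protocols. The transgene holds a full-length human Slit2 cDNA behind the cytomegalovirus promoter, which is not restricted to a cell type, and the construct had been injected into F1 oocytes of C57 and CBA parents. All 12 hearts therefore shared the isolation and 80 min on the apparatus, and ischemia-reperfusion (IR) differed from non-IR by the interruption of flow and the reperfusion after it.

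ADAMTS proteases cut large molecules of the extracellular matrix. One branch, with Adamts1, Adamts4, Adamts5, Adamts8, Adamts9 and Adamts15, cleaves the hyaluronan-binding proteoglycans versican and aggrecan, and the others remove propeptides from procollagens or act on cartilage oligomeric matrix protein and on fibrillin microfibrils. In the heart the family is known for versican turnover in valves and cushions, for vessel wall remodelling and for the short-lived induction of some members by inflammatory and mechanical stimuli.

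The catalytic site shows both the kinship and the difference between the members. Each protease holds its zinc ion with 3 histidines that lie in a stretch of 33 coding bases, and this stretch was found once in the coding sequence of each of the 10 members (GENCODE M21, GRCm38). It is given 5′ to 3′ on the coding strand for the proteoglycan-cleaving branch, which held every member called after IR, with the 3 histidine codons in capitals.
Adamts1: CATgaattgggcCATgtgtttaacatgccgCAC
Adamts4: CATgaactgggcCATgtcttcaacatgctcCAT
Adamts15: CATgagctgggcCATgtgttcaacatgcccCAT
Adamts8: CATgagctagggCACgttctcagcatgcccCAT
Adamts9: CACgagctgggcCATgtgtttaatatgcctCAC
Adamts5: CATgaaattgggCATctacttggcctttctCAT
Of the 33 bases, Adamts1 shared 27 with Adamts4, 28 with Adamts15, 28 with Adamts9, 22 with Adamts8 and 20 with Adamts5, and Adamts4 shared 30 with Adamts15. In all 10 genes an exon junction cuts the stretch. In Adamts1, Adamts4, Adamts5, Adamts8 and Adamts15 the first 10 bases stand in one exon and the other 23 in the next, while in Adamts9 and in Adamts2, Adamts7, Adamts10 and Adamts12 the split is 17 to 16 bases. The stretch lies in exons 3 and 4 of 9 of Adamts1 (chr16:85799191-85799545, minus strand) and in exons 3 and 4 of 9 of Adamts4 (chr1:171253210-171253915, plus strand). It lies in exons 2 and 3 of 8 of Adamts15 (chr9:30911255-30911690, minus strand), in exons 3 and 4 of 9 of Adamts8 (chr9:30952721-30953378, plus strand), in exons 8 and 9 of 40 of Adamts9 (chr6:92905285-92908493, minus strand) and in exons 2 and 3 of 8 of Adamts5 (chr16:85878015-85887826, minus strand).

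Some members are neighbours on the genome. In the coordinates of the files (GRCm38), Adamts1 (ENSMUSG00000022893, chr16:85793827-85803113, minus strand) and Adamts5 (chr16:85858170-85901125, minus strand) are 55056 bases apart with 0 other genes between them. Adamts8 (chr9:30942562-30963838, plus strand) and Adamts15 (chr9:30899155-30922452, minus strand) are 20109 bases apart, again with 0 genes between. Adamts4 (ENSMUSG00000006403, chr1:171250421-171260637, plus strand) lies on chromosome 1, and the span of Adamts7 (chr9:90163069-90208071, plus strand) shares 6045 bases with Tbc1d2b on the other strand. The remaining members are Adamts2 (chr11:50602084-50807573, plus strand), Adamts9 (chr6:92772699-92943492, minus strand), Adamts10 (chr17:33524204-33553782, plus strand) and Adamts12 (chr15:11064790-11346867, plus strand).

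Reads on genes, recovered from the deposited values, ranged from 16601154 to 24841291 per library, of which 19.7% to 26.0% fell on the mitochondrial genome. Summed cardiomyocyte markers lay between 12110 and 18520 FPKM (fragments scaled by gene length and by a size factor for each library, a level per length), so that the heart label held in all 12 libraries. The 6 atrial markers summed to 1695 FPKM in Slit2-IR replicate 1 and to 26.6 to 240.4 FPKM in the other 11 libraries. Over the 10 marker lists, atrial markers were higher in IR hearts (mean difference of log2 sums 1.56) and blood markers lower (−1.31), each with p = 0.045 in an exact permutation test within genotypes (two-sided) and an adjusted p of 0.225. Without Slit2-IR replicate 1, left out after its value was seen, the atrial difference was 0.84 (p = 0.095, exact permutation test, adjusted p = 0.45). Lung markers summed to 5.485 to 12.2 FPKM in 5 libraries (C57-non-IR and C57-IR replicates 2 and 3 and Slit2-non-IR replicate 2) and to 0.0582 to 0.173 FPKM in the other 7. In C57-IR replicate 1 fibroblast markers summed to 560.9 FPKM, against 892.1 and 916.3 FPKM in replicates 2 and 3. Cardiomyocyte markers went the other way there, at 17890 against 13750 and 13960 FPKM. The part of these markers in the results on the proteases was not tested. The mouse Slit2 row, at 0.0847 to 0.813 FPKM, does not test the transgene, which is a human cDNA. No label says that the 3 libraries of a group share or do not share a litter or day, so p-values measure the spread between these libraries.

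In C57BL/6J hearts, the question was which members differ after IR from hearts perfused without it. Adamts1, an early-response protease that cleaves versican and also binds VEGF, and Adamts4, known as aggrecanase-1, stood higher after IR. Adamts1 was at 19.4, 32.7 and 25.2 FPKM in C57-non-IR replicates 1 to 3 and at 61.5, 138.0 and 75.2 FPKM in C57-IR replicates 1 to 3. The groups did not overlap, the lowest IR library being 1.88 times the highest non-IR library. Adamts4 was at 0.0977, 0.0482 and 0.180 FPKM without IR, from 8, 5 and 15 reads, and at 2.83, 11.96 and 8.79 FPKM after IR, from 238, 1135 and 950 reads. Here too the groups were apart, C57-IR replicate 1 being the lowest of the IR libraries for both genes. The 5 adipose markers, each listed at 0 in some library, summed to 0 to 0.847 FPKM in C57-non-IR and to 0.105, 14.1 and 17.2 FPKM in C57-IR replicates 1 to 3, and in Slit2-Tg hearts to 1.41 to 7.97 FPKM without and 0.772 to 10.02 FPKM with IR. Their part in the levels of Adamts1 and Adamts4 was not tested. The group mean of Adamts4 was 72.3 times higher after IR, and that of Adamts1 3.56 times higher.

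The tests were made on the log2(FPKM + 1) scale by limma's moderated test with Benjamini-Hochberg adjustment over all 15240 genes. That scale understates the change of any gene at low FPKM, such as Adamts4, Adamts8 and Adamts12. Adamts4 rose by 2.83 (SE 0.33) with adjusted p = 0.00934. It met the filter on low values only through IR libraries, since too few non-IR libraries reached the 10 reads required. Its place among the tested genes therefore rests on the groups where it is high. Without a filter beyond 1 read it stayed called in C57BL/6J hearts (adjusted p = 0.0427). Adamts1 differed by 1.73 (SE 0.36, unadjusted p = 5.67e-04) with adjusted p = 0.0785, which misses the threshold of 0.05. So 1 of 10 members was called, beside 0.459% of all genes tested, and 2 of 10 had an unadjusted p under 0.05, beside 8.96%. Groups without overlap were found for 2 members, both higher after IR, beside 6.75% of all genes, and for 0 members in the lower direction, beside 7.01%. The call of Adamts4 was lost without C57-non-IR replicate 1 (adjusted p = 0.0704), replicate 2 (0.081) or replicate 3 (0.0572), and without C57-IR replicate 3 (0.0647), with differences of 2.67 to 2.87. Without C57-IR replicate 1 Adamts1 passed as well (1.97, adjusted p = 0.0353).

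**Figure D1:**
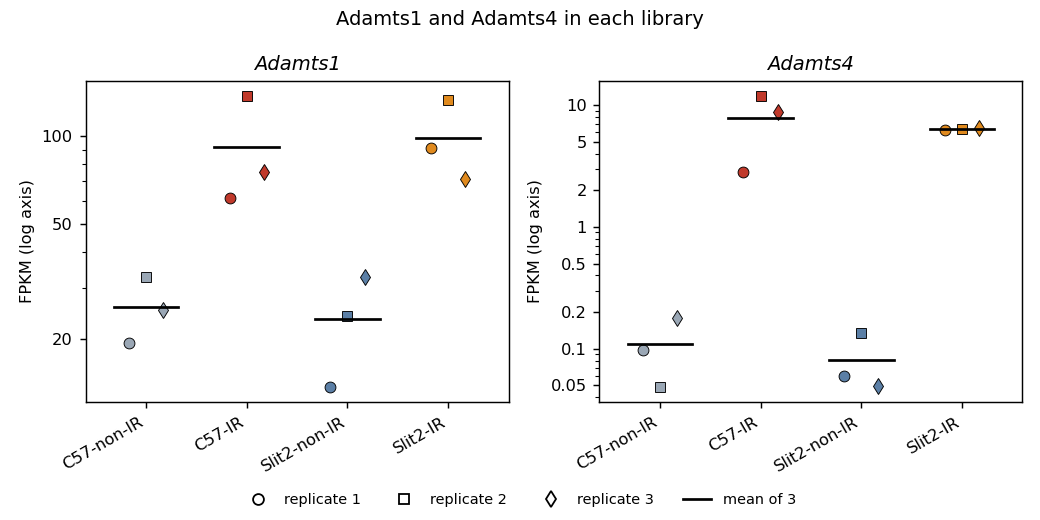
Adamts1 and Adamts4 in FPKM on log axes for the 3 libraries of each of the 4 groups. Symbols mark the replicates and bars the group means. In both genotypes every IR library lies above every non-IR library, and for Adamts4 the IR libraries sit between 2.83 and 11.96 FPKM and the non-IR libraries between 0.0482 and 0.180 FPKM.

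In Slit2-Tg hearts both proteases rose after IR. Adamts1 was at 13.7, 24.0 and 32.8 FPKM in Slit2-non-IR replicates 1 to 3 and at 91.3, 133.1 and 71.5 FPKM in Slit2-IR replicates 1 to 3. Adamts4 was at 0.0601, 0.135 and 0.0493 FPKM without IR, from 6, 15 and 6 reads, and at 6.29, 6.36 and 6.44 FPKM after IR, from 614, 736 and 690 reads. Again no non-IR library reached an IR library, and the 3 Slit2-IR values of Adamts4 were closer to each other (SD 0.0741 FPKM) than the 3 C57-IR values (SD 4.63 FPKM), a difference in spread that was not tested. The group means were 4.21 times higher for Adamts1 and 78.0 times higher for Adamts4.

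Adamts4 rose by 2.77 (SE 0.33) with adjusted p = 0.00756 in limma's test, and Adamts1 by 2.06 (SE 0.36) with adjusted p = 0.0403. Here too Adamts4 was tested only because its IR libraries met the filter, and without a filter beyond 1 read its adjusted p was 0.0298. Thus 2 of 10 members were called, beside 0.525% of all genes, and 6 of 10 had an unadjusted p under 0.05, beside 11.2%. Groups did not overlap for 5 members in the higher direction (Adamts1, Adamts2, Adamts4, Adamts8 and Adamts12), beside 8.65% of all genes, and for 1 in the lower direction (Adamts15), beside 8.3%. The call of Adamts1 was lost without Slit2-non-IR replicate 1 (adjusted p = 0.14), 2 (0.138) or 3 (0.0718), Slit2-IR replicate 1 (0.154) or 2 (0.128), C57-IR replicate 3 (0.0596), or C57-non-IR replicate 1 (0.0703), 2 (0.0709) or 3 (0.0716), with differences of 1.73 to 2.33. That of Adamts4 was lost without Slit2-non-IR replicate 3 (0.0512) or Slit2-IR replicate 1 (0.0516) or 2 (0.0507), with differences of 2.75 to 2.77.

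Taken over both genotypes, where 6 IR libraries stand against 6 non-IR libraries, both genes passed with more room. Adamts4 rose by 2.80 (SE 0.23, 95% confidence interval 2.29 to 3.31, adjusted p = 3.14e-04) and Adamts1 by 1.90 (SE 0.26, 1.33 to 2.46, adjusted p = 0.00333), and every single library could be left out without losing either call. Without Slit2-IR replicate 1, the library with the atrial markers, the differences were 2.80 (adjusted p = 0.00165) and 1.91 (0.0106). These were 2 of 10 members, beside 3.49% of all genes, and 5 of 10 had an unadjusted p under 0.05, beside 15.9%. In this contrast too Adamts4 was tested only because its IR libraries met the filter. Without a filter beyond 1 read both genes stayed called. With 10 reads required in every library Adamts4 was not tested, and 1 of 9 members, Adamts1, was called. The median difference of the 10 members was 0.08 beside 0.004 for all genes tested.

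**Figure D2:**
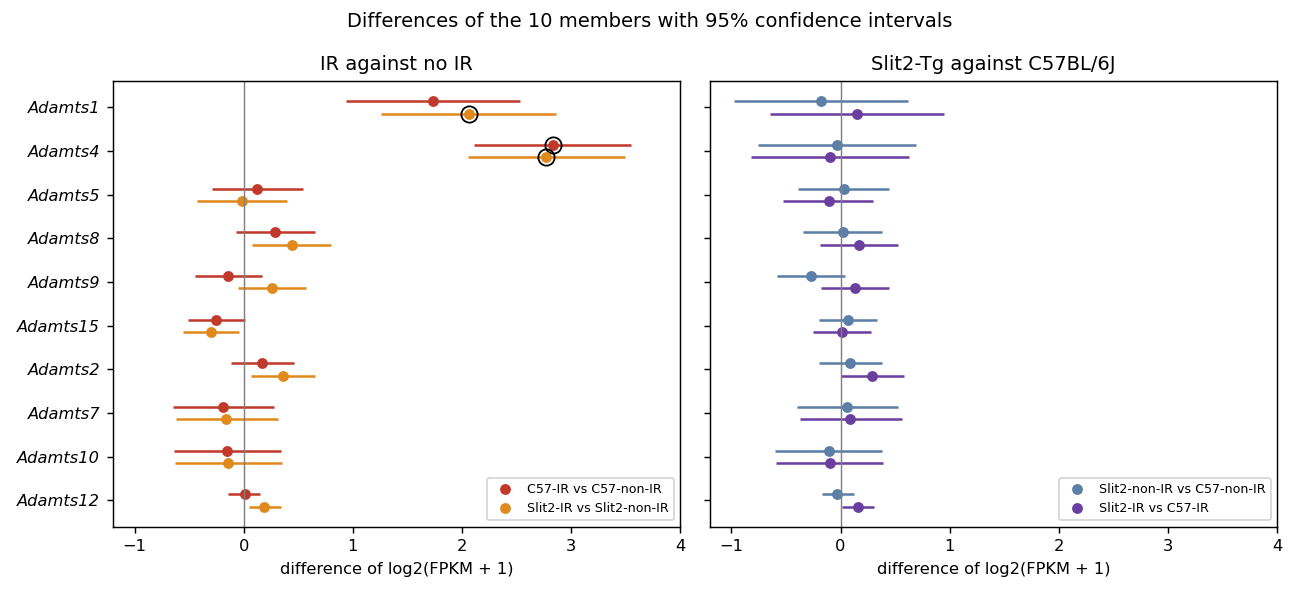
Differences of log2(FPKM + 1) of the 10 members with 95% confidence intervals, IR against no IR in each genotype on the left and Slit2-Tg against C57BL/6J in each protocol on the right. Black rings mark adjusted p under 0.05. Rings stand at Adamts4 in both genotypes and at Adamts1 in Slit2-Tg hearts, and none on the right.

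A promoter of Adamts1 is printed because it belongs to a member that rose. RefSeq windows (GRCm38.p6, 250 bases before to 50 after the start) were at hand for 4 of the 10 members, Adamts1, Adamts2, Adamts9 and Adamts12. The 250 bases before the start of Adamts1 (chr16:85803114-85803363, minus strand) read as follows, with the TATA box in capitals.
Adamts1 promoter: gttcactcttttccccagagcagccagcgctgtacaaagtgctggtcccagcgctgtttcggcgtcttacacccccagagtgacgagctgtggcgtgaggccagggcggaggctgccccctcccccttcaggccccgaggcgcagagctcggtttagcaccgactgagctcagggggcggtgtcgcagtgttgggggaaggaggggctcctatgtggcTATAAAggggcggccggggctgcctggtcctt
The TATAAA match begins 32 bases before the start, and 13.62% of 32851 promoter windows of the same length held that motif on either strand. Of the other 7 motifs searched on both strands (TGANTCA, TGACGTCA, GAANNTTC, AAAGGTCA, GCGTGGGCG, the NF-kB site and the CArG box), none matched in the Adamts1 window. In the other windows Adamts9 held 1 NF-kB match 15 bases before the start (8.46% of windows), Adamts2 held 1 GAANNTTC match 28 bases after it (7.86%), and Adamts12 held none of the 8 motifs. No match overlapped another, and a match is a string of letters, not a bound site.

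The other proteoglycan-cleaving members did not pass the adjusted threshold in any comparison. Adamts15, a versican-cleaving protease, was at 0.929, 0.827 and 1.13 FPKM in C57-non-IR, 0.569, 0.445 and 0.957 FPKM in C57-IR, 1.27, 0.908 and 0.980 FPKM in Slit2-non-IR, and 0.680, 0.517 and 0.797 FPKM in Slit2-IR replicates 1 to 3. Its values ran against those of the pair above, with all 3 Slit2-IR libraries below all 3 Slit2-non-IR libraries and 1 C57-IR library, replicate 3, within the range of its controls. Over both genotypes the difference was −0.28 (SE 0.08, unadjusted p = 0.00715, adjusted p = 0.111). Without C57-IR replicate 3 it passed (−0.34, adjusted p = 0.035).

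Adamts8, a relative of Adamts1 known for restraining blood vessel growth, was measured from only 13 to 112 reads per library. It was at 0.280, 0.211 and 0.225 FPKM in C57-non-IR, 0.224, 0.780 and 0.598 FPKM in C57-IR, 0.324, 0.122 and 0.325 FPKM in Slit2-non-IR, and 1.20, 0.405 and 0.603 FPKM in Slit2-IR replicates 1 to 3. C57-IR replicate 1 lay within the range of the non-IR libraries, and the highest value came from Slit2-IR replicate 1, the library with the atrial markers at 1695 FPKM. The part of atrial tissue in that value was not tested. The difference over both genotypes was 0.37 (SE 0.12, unadjusted p = 0.00873, adjusted p = 0.124). It was 0.28 without Slit2-IR replicate 1 (adjusted p = 0.2) and passed without C57-IR replicate 1 (0.44, adjusted p = 0.0419).

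Adamts5, known as aggrecanase-2, and Adamts9, a large versican-cleaving protease, did not differ after IR by more than the spread between libraries. Adamts5 ranged from 2.72 to 5.73 FPKM over the 12 libraries, with means of 4.36 ± 1.42 FPKM (SD, n = 3) in C57-non-IR, 4.74 ± 0.932 FPKM in C57-IR, 4.32 ± 0.0759 FPKM in Slit2-non-IR and 4.28 ± 0.553 FPKM in Slit2-IR hearts. Adjacent to Adamts1 on chromosome 16, it differed by 0.05 over both genotypes (95% confidence interval −0.24 to 0.35, adjusted p = 0.91), an interval that lies below that of Adamts1 (1.33 to 2.46). Adamts9 was at 1.99 ± 0.322, 1.72 ± 0.381, 1.48 ± 0.255 and 1.98 ± 0.432 FPKM in the same order, with a difference of −0.14 in C57BL/6J and 0.26 in Slit2-Tg hearts. The interaction, which tests whether the IR difference itself depends on the genotype, was 0.40 (SE 0.20, unadjusted p = 0.0707, adjusted p = 1).

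Among the members with other substrates, Adamts2, the procollagen N-proteinase, stood slightly higher after IR in Slit2-Tg hearts. It was at 2.35, 3.27 and 2.93 FPKM in C57-non-IR, 2.81, 3.45 and 3.72 FPKM in C57-IR, 3.42, 2.67 and 3.21 FPKM in Slit2-non-IR, and 4.72, 3.61 and 4.51 FPKM in Slit2-IR replicates 1 to 3. The Slit2-IR libraries were the highest group, though replicate 2 lay within the range of C57-IR. The difference was 0.36 in Slit2-Tg hearts (SE 0.13, unadjusted p = 0.0184, adjusted p = 0.298) and 0.27 over both genotypes (SE 0.09, unadjusted p = 0.0154, adjusted p = 0.169).

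Adamts12 and Adamts7 both cleave cartilage oligomeric matrix protein. Adamts12 was low, at 15 to 61 reads per library, with 0.141, 0.320 and 0.306 FPKM in C57-non-IR, 0.239, 0.325 and 0.214 FPKM in C57-IR, 0.263, 0.250 and 0.177 FPKM in Slit2-non-IR, and 0.450, 0.333 and 0.439 FPKM in Slit2-IR replicates 1 to 3. All 3 Slit2-IR libraries lay above the other 9, by a margin that was small against the spread (the nearest pair was 0.333 and 0.325 FPKM). The IR difference in Slit2-Tg hearts was 0.19 (SE 0.07, unadjusted p = 0.0142, adjusted p = 0.267) and that in C57BL/6J hearts 0.01 (SE 0.07), and their difference, the interaction, was 0.19 (unadjusted p = 0.0725, adjusted p = 1). As ratios, the group mean after IR was 1.77 times that without IR in Slit2-Tg hearts and 1.015 times in C57BL/6J hearts. Adamts7, a protease of vascular smooth muscle, ranged from 2.60 to 5.56 FPKM and differed by −0.17 over both genotypes (95% confidence interval −0.50 to 0.16, adjusted p = 0.674). Tbc1d2b, whose span overlaps that of Adamts7, was at 2.20 to 3.54 FPKM, and the counting is not stated to use strand.

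Adamts10, which acts on fibrillin microfibrils, ranged from 4.43 to 10.5 FPKM. Its highest value was C57-non-IR replicate 1, and the other 11 libraries reached 8.08 FPKM. The difference over both genotypes was −0.14 (95% confidence interval −0.49 to 0.20, adjusted p = 0.749).

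**Figure D3:**
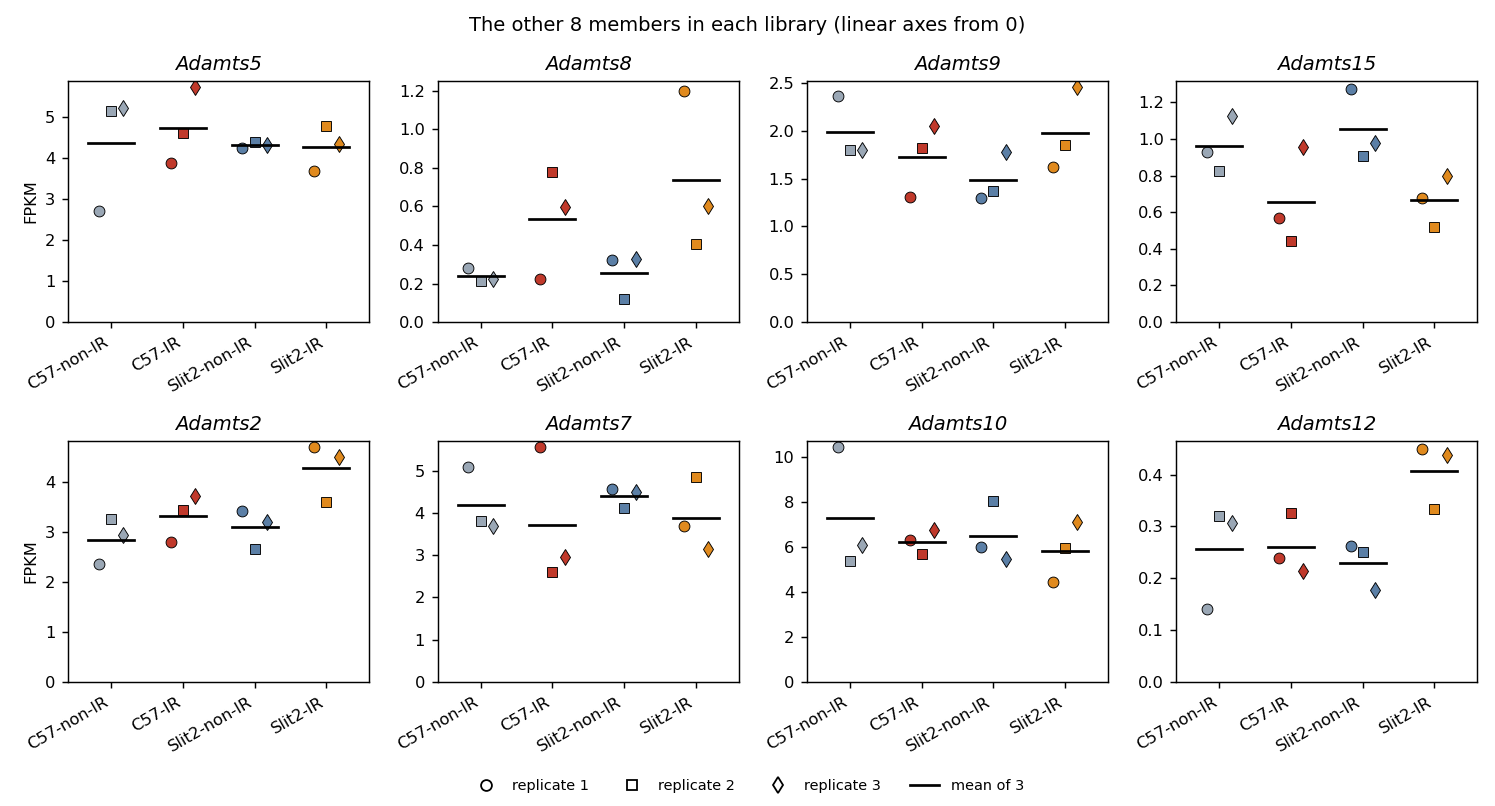
The other 8 members in FPKM on linear axes that start at 0, for the 3 libraries of each group, with symbols for replicates and bars for group means. For Adamts15 the Slit2-IR libraries lie below the Slit2-non-IR libraries, for Adamts12 they lie above all other libraries, and Adamts5 ranges from 2.72 to 5.73 FPKM with group means of 4.28 to 4.74 FPKM.

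The study used the Slit2-Tg line, made earlier by another laboratory, to ask whether Slit2 changes the response to IR. Between genotypes no member had an adjusted p under 0.05 in limma's test. Without ischemia, 0 of 10 members were called beside 0.0394% of all genes, and 0 had an unadjusted p under 0.05 beside 3.19%. Adamts9 was the 1 member without overlap, beside 9.2% of all genes in either direction, with all 3 Slit2-non-IR libraries (1.30, 1.37 and 1.77 FPKM) below all 3 C57-non-IR libraries (2.36, 1.80 and 1.80 FPKM) and a difference of −0.27 (SE 0.14, unadjusted p = 0.0835, adjusted p = 1). After IR, 0 of 10 were called beside 0.0459%, and 1, Adamts12, had an unadjusted p under 0.05 beside 3.16% (difference 0.16, SE 0.07, unadjusted p = 0.035, adjusted p = 1). Adamts12 was also the 1 member without overlap between Slit2-IR and C57-IR, beside 6.47% of all genes.

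For the members that rose after IR, a difference between genotypes was not detected, within wide limits. After IR, Slit2-Tg and C57BL/6J hearts differed by 0.15 for Adamts1 (95% confidence interval −0.65 to 0.95) and by −0.10 for Adamts4 (−0.82 to 0.63), both with adjusted p = 1. These intervals leave room for a difference of up to 0.95 on the log2 scale for Adamts1. Averaged over both protocols, 0 of 10 members were called beside 0.131%, and 0 had an unadjusted p under 0.05 beside 4.13%. For the interaction, 0 of 10 were called beside 0%, and 0 had an unadjusted p under 0.05 beside 1.86%. The interaction was 0.33 for Adamts1 (SE 0.51, −0.80 to 1.46) and −0.06 for Adamts4 (SE 0.46, −1.08 to 0.96).

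The order of the levels changed with IR mainly through Adamts4. In C57-non-IR hearts Adamts1 led at 25.7 ± 6.68 FPKM (SD, n = 3), followed by Adamts10 at 7.30 ± 2.75, Adamts5 at 4.36 ± 1.42, Adamts7 at 4.19 ± 0.773, Adamts2 at 2.85 ± 0.464, Adamts9 at 1.99 ± 0.322, Adamts15 at 0.961 ± 0.152, Adamts12 at 0.256 ± 0.0992, Adamts8 at 0.239 ± 0.0364 and Adamts4 at 0.109 ± 0.0667 FPKM. In that order the ranges of Adamts5 and Adamts7, of Adamts2 and Adamts9, and of Adamts12 and Adamts8 overlapped, and the other neighbours did not. In C57-IR hearts Adamts4 ranked 2 of 10 at 7.86 ± 4.63 FPKM, behind Adamts1 at 91.6 ± 40.8 FPKM, although its range overlapped that of Adamts10 (6.25 ± 0.549 FPKM). In Slit2-Tg hearts it also moved from rank 10 at 0.0815 ± 0.0468 FPKM to rank 2 at 6.36 ± 0.0741 FPKM, beside Adamts1 at 23.5 ± 9.56 FPKM without and 98.7 ± 31.4 FPKM with IR, and again it overlapped Adamts10 (5.84 ± 1.36 FPKM).

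The summed level of the 10 members was 43.8 to 53.5 FPKM in C57-non-IR and 35.1 to 53.6 FPKM in Slit2-non-IR libraries, against 85.3 to 170 FPKM in C57-IR and 101 to 162 FPKM in Slit2-IR libraries. Adamts1 made up 38.9% to 61.2% of that sum in the 6 non-IR libraries and 70.3% to 82.3% in the 6 IR libraries. The 8 members besides Adamts1 and Adamts4 summed to 20.7 to 24.3 FPKM in C57-non-IR, 19.7 to 23.0 FPKM in C57-IR, 20.7 to 21.9 FPKM in Slit2-non-IR and 20.5 to 23.4 FPKM in Slit2-IR libraries, ranges that overlap throughout. In whole hearts, a change in the number of cells of a type and a change of RNA per cell cannot be told apart.

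**Figure D4:**
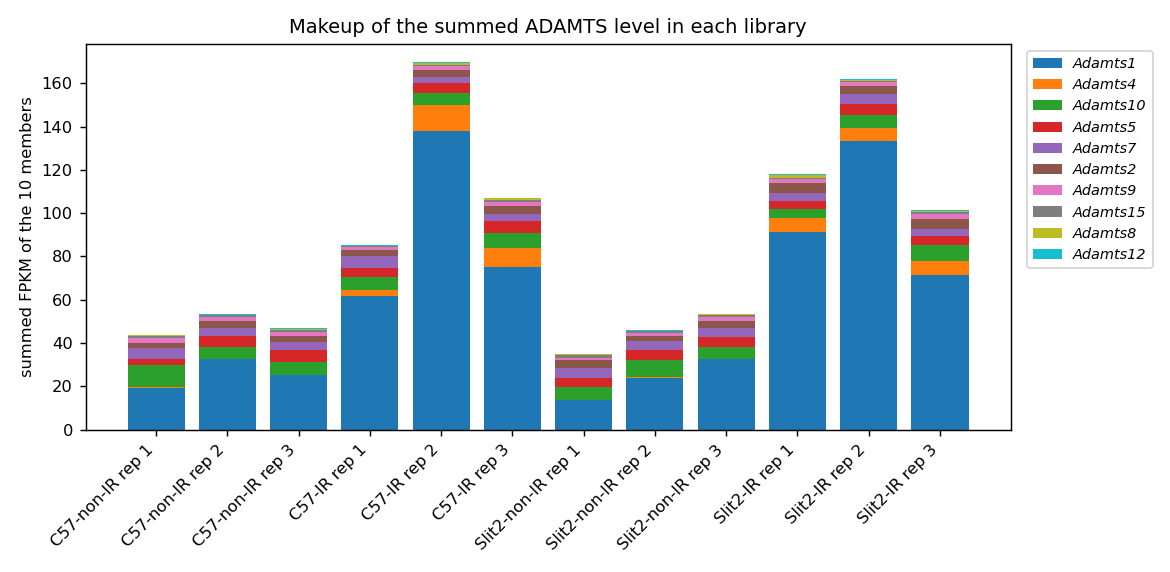
Stacked bars of the FPKM of the 10 members in each of the 12 libraries. The sum reaches 85.3 to 170 FPKM in IR libraries and 35.1 to 53.6 FPKM in non-IR libraries, and the Adamts1 and Adamts4 segments carry the difference.

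Across all 12 libraries, the tested genes most like Adamts1 by Pearson correlation of log2(FPKM + 1) were Gadd45b (r = 0.990), a stress-induced gene of the GADD45 family, Csrnp1 (0.985), an AXIN-induced nuclear protein, and Cxcl1 (0.980), a neutrophil chemokine. Those most like Adamts4 were the cytokine gene Il6 (0.995), Sphk1 (0.987), which makes sphingosine 1-phosphate, and Rnd1 (0.983). The 12 points fall into IR and non-IR libraries, which carries much of such a correlation. Within the 6 IR libraries r was 0.92 to 0.98 for the 3 genes like Adamts1 and 0.89 to 0.98 for the 3 like Adamts4, and within the 6 non-IR libraries it was 0.91 to 0.99 for the former and 0.13 to 0.29 for the latter, where Adamts4 rests on 5 to 15 reads. Among the members, Adamts1 and Adamts4 had r = 0.93 over 12 libraries but 0.64 within IR and −0.08 within non-IR libraries. Adamts1 and Adamts15 ran opposite to each other in every set, with r = −0.85 over 12 libraries, −0.63 within IR and −0.69 within non-IR libraries. Adamts1 was also negative in every set with Adamts7 (−0.42, −0.24 and −0.50) and with Adamts10 (−0.40, −0.40 and −0.39). Adamts2 and Adamts12 had r = 0.80, 0.81 and 0.54 in the same order. These pairs are a selection from all pairs of the 10 members, and no correlation was tested. Within 6 libraries other pairs reached larger values, such as Adamts2 and Adamts10 (−0.94, non-IR) and Adamts4 and Adamts7 (−0.88, IR).

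Genes that act with the ADAMTS proteases were taken from 5 lists. Of the 9 other ADAMTS genes 6 were tested, and 0 were called in any of the 7 contrasts by limma's test, beside 0% to 3.49% of all genes per contrast. For the IR difference in Slit2-Tg hearts 2 of 6 had an unadjusted p under 0.05, beside 11.2% of all genes. For the interaction it was 1 of 6, beside 1.86%. That gene was Adamts14 (interaction 0.38, SE 0.15, unadjusted p = 0.0294, not called), with an IR difference of −0.03 (SE 0.11) in C57BL/6J hearts. The smallest p-values were those of Adamts14, a procollagen N-proteinase like Adamts2, with 0.482, 0.375 and 0.289 FPKM in Slit2-non-IR and 0.588, 0.935 and 0.777 FPKM in Slit2-IR replicates 1 to 3 (difference 0.35, SE 0.11, unadjusted p = 0.00764, adjusted p = 0.205), and of Adamts20, at 0.0385 to 0.137 FPKM (difference 0.08, unadjusted p = 0.0435, adjusted p = 0.416 in Slit2-Tg hearts). At these low levels the log2(FPKM + 1) scale understates the change. The group means in Slit2-Tg hearts were 2.01 times higher after IR for Adamts14 and 2.34 times higher for Adamts20. Of the 7 ADAMTS-like genes, which have the matrix-binding repeats without a protease domain, all 7 were tested and 0 were called in any contrast, again beside 0% to 3.49% of all genes. Papln had the smallest p-value, for the interaction (0.74, SE 0.35, unadjusted p = 0.0608, adjusted p = 1), and Adamtsl2 the next (0.47 in Slit2-Tg hearts, SE 0.26, unadjusted p = 0.102, adjusted p = 0.568). Both lists had 0 members with an unadjusted p under 0.05 for the IR difference over both genotypes, beside 15.9% of all genes. With 6 and 7 genes tested, such counts say little about these lists.

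Among 18 substrates, of which 15 were tested, 1 rose with IR over both genotypes (beside 3.49% of all genes), the matricellular protein gene Thbs1. It was at 6.96, 8.90 and 11.6 FPKM in C57-non-IR, 22.7, 89.6 and 80.5 FPKM in C57-IR, 2.14, 16.6 and 9.99 FPKM in Slit2-non-IR, and 86.6, 65.7 and 61.4 FPKM in Slit2-IR replicates 1 to 3. All 6 IR libraries lay above all 6 non-IR libraries, and Thbs1 rose by 2.78 (SE 0.43, adjusted p = 0.00523). The list's median difference was 0.34 beside 0.004 for all genes, and 5 of 15 had an unadjusted p under 0.05, beside 15.9% of all genes (Thbs1, Tfpi2, Fbn1, Col1a1 and Vcan), all with higher values after IR. The gene of versican itself, Vcan, was at 0.690, 1.19 and 1.28 FPKM in C57-non-IR and 0.951, 1.33 and 2.42 FPKM in C57-IR replicates 1 to 3, groups that overlapped, with a difference of 0.34 over both genotypes (SE 0.15, unadjusted p = 0.042, adjusted p = 0.29). Acan, the gene of aggrecan, was at 0.0153 to 0.119 FPKM in the 12 libraries.

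Of 11 activators, cofactors and partners, all tested, 3 rose with IR over both genotypes, beside 3.49% of all genes: the hyaluronan synthases Has1 and Has2, which make the chain that versican binds, and Sdc4, a cell surface proteoglycan known to control Adamts5 activity. Has1 was at 0.169, 0.576 and 0.387 FPKM in C57-non-IR, 2.82, 13.4 and 11.1 FPKM in C57-IR, 0.115, 0.913 and 0.473 FPKM in Slit2-non-IR, and 15.2, 4.35 and 6.25 FPKM in Slit2-IR replicates 1 to 3, without overlap between IR and non-IR libraries. It rose by 2.61 (SE 0.35, adjusted p = 0.00308), Has2 by 0.74 (SE 0.13, adjusted p = 0.00825) and Sdc4 by 1.12 (SE 0.15, adjusted p = 0.00332). Has2 was at 0.0831 to 0.286 FPKM in C57-non-IR and 0.365 to 1.36 FPKM in C57-IR, and at 0.0910 to 0.205 FPKM in Slit2-non-IR and 0.868 to 1.535 FPKM in Slit2-IR libraries, so that its group means were 5.06 and 6.81 times higher after IR, and its log2 difference was 1.97 with a pseudocount of 0.1 and 2.51 with limma-voom on the reads. Sdc4 went from 5.83 to 7.88 FPKM in C57-non-IR to 11.6 to 19.3 FPKM in C57-IR, and from 5.49 to 7.51 to 12.1 to 20.6 FPKM in Slit2-Tg hearts. The list's median difference was 0.04 beside 0.004. Within C57BL/6J hearts 1 of 11 was called by limma's test, Has1 (2.67, adjusted p = 0.0487), beside 0.459% of all genes. Within Slit2-Tg hearts it was 1 of 11, Sdc4 (1.21, adjusted p = 0.0403), beside 0.525%. The other genotype came near in both cases, with 2.55 for Has1 in Slit2-Tg hearts (adjusted p = 0.0506) and 1.02 for Sdc4 in C57BL/6J hearts (0.0784). The Has1 call was lost without any one of the 3 C57-non-IR or 3 Slit2-non-IR libraries, C57-IR replicate 2 or 3, or Slit2-IR replicate 3 (adjusted p = 0.0544 to 0.216). The Sdc4 call was lost without any one of the 3 C57-non-IR or 3 Slit2-non-IR libraries, C57-IR replicate 3, or Slit2-IR replicate 1 or 2 (0.0596 to 0.158).

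Of 7 inhibitors and clearance receptors, all tested, 0 were called in any contrast by limma's test, beside 0% to 3.49% of all genes per contrast. For the IR difference over both genotypes 2 had an unadjusted p under 0.05, beside 15.9% of all genes. Timp1, a tissue inhibitor of metalloproteinases, was at 1.72, 1.36 and 2.54 FPKM in C57-non-IR, 1.81, 8.28 and 9.22 FPKM in C57-IR, 1.90, 1.76 and 2.80 FPKM in Slit2-non-IR, and 7.32, 2.95 and 6.42 FPKM in Slit2-IR replicates 1 to 3. C57-IR replicate 1 lay among the non-IR libraries, and the difference over both genotypes was 1.09 (SE 0.31, unadjusted p = 0.00479, adjusted p = 0.0883). Lrp1, the endocytic receptor that clears several ADAMTS proteases, differed by 0.30 (SE 0.12, unadjusted p = 0.0275, adjusted p = 0.231). Timp3, the inhibitor best known for acting on Adamts4 and Adamts5, was at 19.8 to 48.9 FPKM and differed by 0.06 (adjusted p = 0.941).

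**Figure D5:**
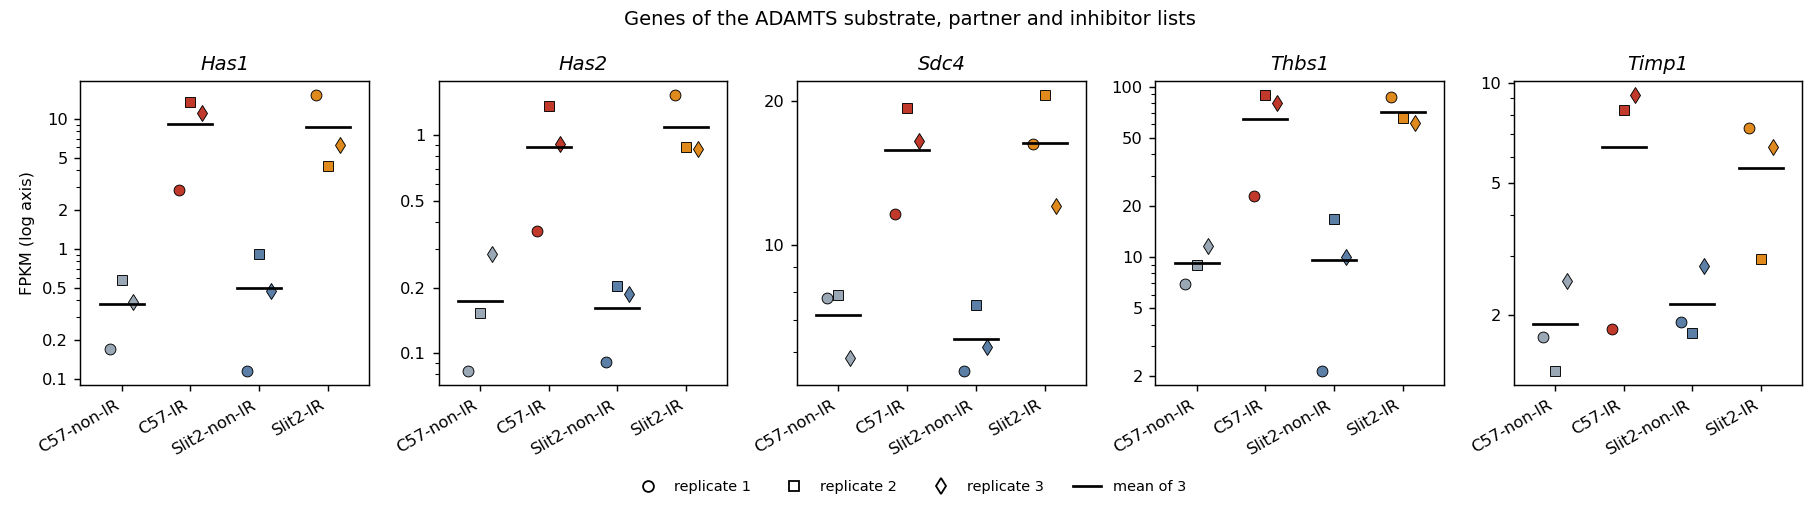
Has1, Has2, Sdc4, Thbs1 and Timp1 in FPKM on log axes for the 3 libraries of each group, with symbols for replicates and bars for group means. IR and non-IR libraries do not overlap for Has1, Has2, Sdc4 and Thbs1, while C57-IR replicate 1 of Timp1 (1.81 FPKM) lies among the non-IR libraries.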

How the data were processed

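RNA of 12 mouse hearts was sequenced as paired-end reads (HiSeq, NEBNext Ultra kit). The FPKM values were deposited by the authors per gene and library with GRCm38 coordinates. The submitters' processing notes name HISAT2 and mm10, while the counting tool, annotation release and use of strand are not given in the sources used here. IR was read from the letters of the sample titles. Every value (100.0%, tolerance 0.01 reads) came back to whole reads once multiplied by gene length, which gave the depth, and all libraries had been scaled together.

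Genes at 10 or more reads, after scaling to median depth, in 3 or more libraries, and at 15 or more in all, were tested with limma 3.58.1 (R 4.3.3, trend) on log2(FPKM + 1), 4 groups in one fit, with Benjamini-Hochberg adjustment over 15240 genes. The procedure was tested on simulated counts, with changes placed only in genes with many reads and the same spread for all genes. That test did not cover changes of genes with few reads, such as Adamts8 and Adamts12. The members and lists were chosen with earlier results of these data known. Genes were named by a rule: all members, list genes under an adjusted p of 0.05 in any contrast or otherwise the list's 2 smallest p-values, and the 3 genes most like each member called over both genotypes. Acan, Timp3, Vcan and the other substrates under an unadjusted p of 0.05 were named after their values were seen. Deviations from the group mean were correlated between libraries of the same replicate number. All 3 correlations were over 0.1 in Slit2-IR against Slit2-non-IR (0.143 to 0.294) and against C57-IR hearts (0.154 to 0.362). Elsewhere 2 of 3 were. No label states a pairing, and libraries of different numbers were not compared in this way, so these values do not show that replicates were paired. There were 0 per-library columns left unused. A result on 1 other gene is not reported here.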

Additional observations from a re-analysis of the deposited data

How the results depend on the processing

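Over both genotypes Adamts1 and Adamts4 passed in all alternatives that tested them (adjusted p = 0.00107 to 0.015 and 4.02e-08 to 0.00231), as did Thbs1, Sdc4, Has1 and Has2. With at least 10 reads required in every library, which leaves out Adamts4, the members called were 0 in C57BL/6J hearts, 1 in Slit2-Tg hearts and 1 over both. With only the 6 libraries of a comparison in the fit they were 0 in C57BL/6J hearts (Adamts4, adjusted p = 0.105) and 1 in Slit2-Tg hearts, and without a filter beyond 1 read 1 in Slit2-Tg hearts. With the replicate block 2 were called in C57BL/6J hearts (Adamts1, adjusted p = 0.0213), where 2 of 3 same-numbered pairs deviated together. Adamts15 then passed over both genotypes (adjusted p = 0.0436). In the comparisons with all 3 correlations over 0.1 the block changed no call of a member. Over all genes it raised the calls in C57BL/6J hearts from 62 higher and 8 lower to 143 and 31. In Slit2-Tg hearts they went from 68 and 12 to 163 and 39. Leaving out single libraries gave 0 to 2 members called in C57BL/6J and 0 to 2 in Slit2-Tg hearts. A pseudocount of 0.1 or limma-voom on the reads raised the difference of Adamts4 over both genotypes to 5.13 and 6.22. Adamts4 without IR (5 to 15 reads), Adamts8 (13 to 112) and Adamts12 (15 to 61) rest on few reads, which limits the precision of their fold changes.

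Differences that were small and not called turned sign in 18 of 811 recomputed single values, and the cause was not tested. The interaction of Adamts4 was 0.11 with a pseudocount of 0.1, 0.24 with limma-voom and −0.58 to 0.30 without single libraries, and that of Adamts1 −0.00 to 0.66. Without single libraries, the C57BL/6J differences ranged from −0.12 to 0.25 for Adamts5, −0.32 to 0.11 for Adamts10 and −0.06 to 0.04 for Adamts12, and those of Slit2-Tg hearts from −0.09 to 0.07 for Adamts5 and −0.28 to 0.02 for Adamts10. Adamts5 over both genotypes ranged from −0.07 to 0.12, and Slit2-IR against C57-IR hearts from −0.09 to 0.48 for Adamts1 and −0.61 to 0.26 for Adamts4. TMM scaling moved the median of all genes by less than 0.1.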
